A study of Mus musculus with 15 samples.

Results

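Methyl-CpG binding proteins are the nuclear proteins that recognise DNA by its methylated CpG dinucleotides, and 6 of their genes are described here across 5 groups of mouse cells: Mbd1, Mbd2, Mbd3, Zbtb33, Zbtb4 and Zbtb38. Members were all probe sets that the annotation of the array assigns to exactly 1 of these symbols, which gave 6 of the 18193 genes with a symbol of their own and 17 of the 45101 probe sets: 5 for Mbd1, 2 for Mbd2, 1 for Mbd3, 2 for Zbtb33, 4 for Zbtb4 and 3 for Zbtb38. One further probe set, annotated to both E030011O05Rik and Zbtb38, was not counted.

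RNA was measured on Affymetrix expression arrays, with 3 arrays in each group. MLC were made from hepatocytes placed in the MSC medium with hTGF-β1, at 10 ng/ml for 7 days, at 5 ng/ml until day 14 and at 1 ng/ml until day 28, and kept in MSC medium afterwards. The dHD28 cells were HD28 in which the second differentiation medium was exchanged for MSC medium. HD28 were mesenchymal stromal cells (MSC) taken through a hepatogenic protocol of 2 steps in IMDM: first HGF at 20 ng/ml, bFGF at 10 ng/ml and nicotinamide at 0.61 g/L over 7 days. The second step used dexamethasone at 1 µmol/L, oncostatin M at 20 ng/ml and ITS+ premix at 50 mg/ml. Hepatocyte samples were primary hepatocytes kept in DMEM/F12, and MSC were kept in low-glucose DMEM, both with 10% FBS. The title of the series concerns DNA methyltransferases and the reversibility of hepatogenic differentiation. Strain and age are not given in the sources used here, nor is it said whether the arrays of a group came from separate cultures or animals, so the p-values measure the spread between these samples, which may be technical.

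The 6 proteins fall into 2 families. Mbd1 and Mbd2 bind methylated CpG through a methyl-CpG-binding domain, and Mbd3 carries the same domain but in mammals has largely lost the preference for methylated DNA. Mbd2 and Mbd3 are alternative subunits of the NuRD complex, which joins a chromatin remodeller to histone deacetylases, whereas Mbd1 is known for recruiting the histone H3 lysine 9 methyltransferase Setdb1. Zbtb33 (Kaiso), Zbtb4 and Zbtb38 recognise methylated DNA through zinc fingers and carry a BTB domain; Kaiso was found as a partner of p120 catenin. The arrays measured RNA only: neither DNA methylation nor protein was measured.

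The promoters of Mbd3 and Zbtb33 are shown because these genes have the promoter sequence in the RefSeq table of GRCm38.p6 and differed between the starting populations, and because the number of CpG, the unit that these proteins read, differs between them. Each runs for 300 bases across the annotated start of transcription, on the strand of the gene, with CG in capitals. Mbd3 (chromosome 10, gene at 80392539 to 80399531) is shown at chr10:80399482-80399781, minus strand, and Zbtb33 (chromosome X, gene at 38189793 to 38197046) at chrX:38189543-38189842, plus strand.
Mbd3: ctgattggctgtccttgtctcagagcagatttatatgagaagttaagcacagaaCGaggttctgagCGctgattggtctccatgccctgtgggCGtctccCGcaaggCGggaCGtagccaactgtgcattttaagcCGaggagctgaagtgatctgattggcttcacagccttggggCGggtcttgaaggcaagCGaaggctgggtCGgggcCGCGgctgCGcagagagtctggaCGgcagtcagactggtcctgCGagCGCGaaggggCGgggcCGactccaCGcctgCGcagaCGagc
Zbtb33: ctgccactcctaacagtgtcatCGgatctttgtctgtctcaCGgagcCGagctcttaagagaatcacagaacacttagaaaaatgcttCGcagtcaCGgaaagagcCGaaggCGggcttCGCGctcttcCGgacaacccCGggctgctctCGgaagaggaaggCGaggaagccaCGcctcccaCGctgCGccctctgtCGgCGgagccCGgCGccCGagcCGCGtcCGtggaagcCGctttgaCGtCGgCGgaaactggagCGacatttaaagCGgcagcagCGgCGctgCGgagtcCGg

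The Zbtb33 window held 34 CpG, a number reached by 7.73% of 32851 promoters of the same length, and the Mbd3 window held 22 CpG, reached by 23.1%. The median promoter held 7. CCAAT, searched on both strands, was found 3 times in the Mbd3 window, at 247, 179 and 94 bases before the start (3.37% of promoters held at least 3), and 0 times in that of Zbtb33. CGCG, a core to which Kaiso binds when it is methylated, occurred 2 times in each window (26.3% of promoters held at least 2). The unmethylated Kaiso sequence TCCTGCNA, searched on both strands, occurred once in the Mbd3 window (4.96% of promoters held at least 1). These matches describe the letters of the windows. Zbtb4 lies on chromosome 11 at 69765912 to 69784026 and Zbtb38 on chromosome 9 at 96682767 to 96731675.

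All values are log2 expression values. The array medians lay between 4.84 and 4.95. Hepatocyte markers (9 of 10 listed genes measured) averaged 4.58 to 4.69 on the MLC arrays, 4.39 to 4.75 on the dHD28 arrays, 12.92 to 13.15 on the Hepatocyte arrays and 4.56 to 4.77 on the MSC arrays. HD28 was split: replicates 1 and 2 had 4.32 and 4.62, and replicate 3 had 11.55, so 1 library of that group stands apart by its hepatocyte RNA. Added poly-A control transcripts had 7.35 to 8.50 on 6 arrays (MLC 1 and 2, dHD28 2, HD28 2, Hepatocyte 1 and MSC 1) and 4.70 to 5.49 on the other 9, a technical class that every group spans. Of all probe sets, 12.9% differed between the classes. The 3' minus 5' signal of the actin control, a sign of RNA integrity, was 0.665 to 1.244 on the Hepatocyte arrays, 0.943 on HD28 replicate 3 and 0.077 to 0.443 on the others. Markers of other liver cells were highest on the Hepatocyte arrays: Kupffer cell genes (8 of 8 measured) averaged 6.43 to 8.08 there, 5.45 on HD28 replicate 3 and 3.97 to 4.33 elsewhere. Endothelial genes (6 measured) averaged 5.51 to 6.57 and leukocyte genes (4 measured) 5.65 to 6.94 on the Hepatocyte arrays. Proliferation genes (9 of 10 measured) averaged 9.78 to 10.34 in MLC, 9.86 to 10.24 in dHD28, 7.90 to 8.27 in HD28, 5.00 to 6.13 in Hepatocyte and 9.63 to 10.21 in MSC. The part of these differences in the values below was not tested, and in bulk samples fewer cells of a type and less RNA per cell cannot be told apart.

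**Figure D1:**
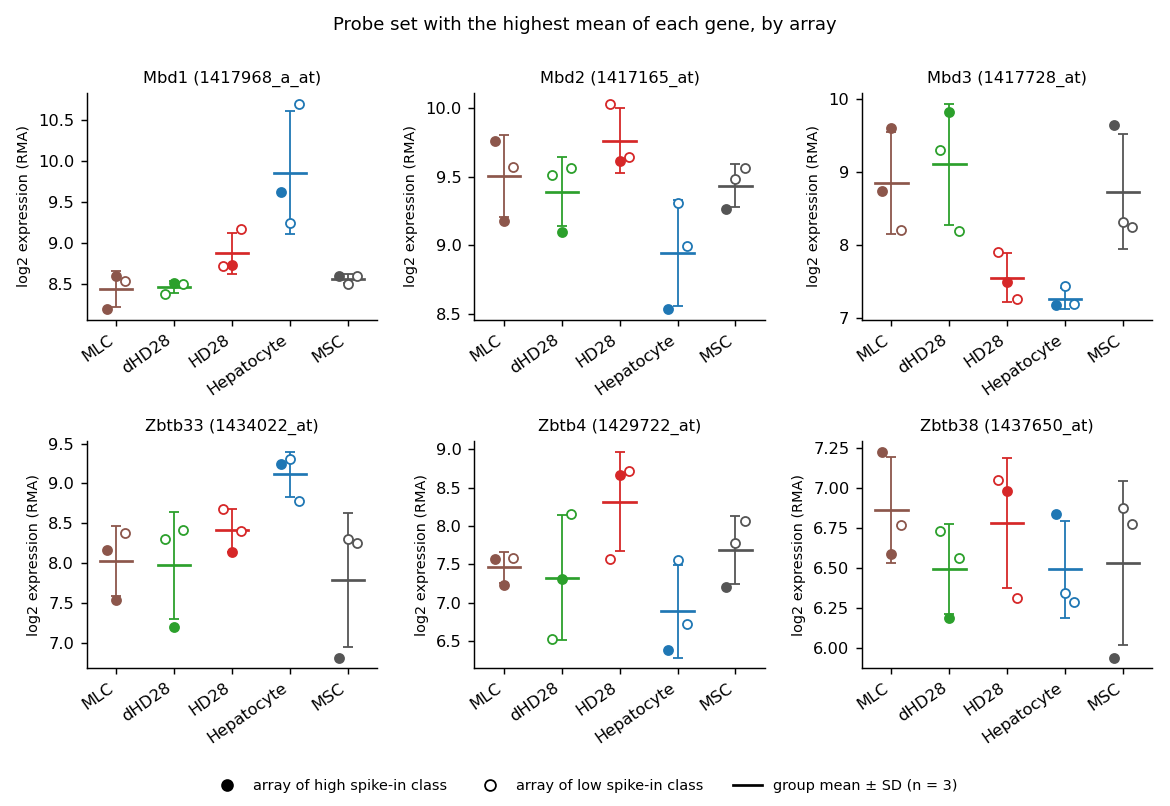
log2 expression of the probe set that stands for each of the 6 genes, on each of the 15 arrays. Points are arrays, filled where the added poly-A controls were high, and bars are group means ± SD (n = 3). Mbd1 averaged 9.86 in Hepatocyte and 8.57 in MSC, and Mbd3 averaged 7.27 in Hepatocyte and 8.73 in MSC.

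Which of these genes distinguish hepatocytes from stromal cells was asked first. Mbd1 and Zbtb33 were higher in Hepatocyte, and Mbd3 was lower, with all 3 Hepatocyte arrays below all 3 MSC arrays. By limma's moderated test, with Benjamini-Hochberg adjustment over all 45037 tested probe sets and an adjusted p under 0.05 as the threshold for a call, 7 of the 17 member probe sets differed: 6 higher and 1 lower in Hepatocyte, or 41.2%, beside 33.5% of all probe sets (15.2% higher, 18.3% lower). The arrays did not overlap for 8 of the 17, beside 44.7% of all probe sets. Both shares lie close to those of the array as a whole.

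Mbd1 was the member with the clearest hepatocyte level. Its probe set of highest signal, 1417968_a_at, had 9.63, 9.25 and 10.70 on the Hepatocyte arrays, against 8.6, 8.50 and 8.6 on the MSC arrays. All Hepatocyte values lay above all MSC values, and replicate 3 was the highest. The difference was 1.29 ± 0.28 on the log2 scale (SE), or 2.45-fold (limma adjusted p = 0.00283). With only arrays of low added controls, 2 in each of these groups, it was 1.42 and not past the threshold. A second probe set, 1453678_at, had 4.75, 4.78 and 5.44 in Hepatocyte, against 2.73, 2.29 and 2.30 in MSC. Its difference of 2.55 ± 0.22, or 5.85-fold (limma adjusted p = 1.39e-06), starts from MSC values under the lower quartile of those arrays, and the table holds no detection calls. Another, 1430838_x_at, was higher by 0.79 ± 0.20 (limma adjusted p = 0.00622), and by 0.73, not past the threshold, with only arrays of low added controls.

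The probe sets of Mbd1 did not all follow one another. Across the 15 arrays 1417968_a_at correlated with 1453678_at at r = 0.909 and with 1430838_x_at at r = 0.844, but with 1437061_at at only 0.496 and with 1430837_a_at at 0.158 (descriptions over arrays that share groups). The probe set 1437061_at had 6.62, 7.09 and 8.43 in Hepatocyte, against 7.00, 7.23 and 7.15 in MSC. Those groups overlapped and no difference was called. The remaining probe set, 1430837_a_at, stayed between 4.77 and 5.69 on all arrays. Its Hepatocyte minus MSC difference was 0.10 (limma adjusted p = 0.805). In the annotation it has the same source sequence as 1453678_at and 1430838_x_at, so these are not separate evidence.

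The other cell states had Mbd1 values close to MSC. With 1417968_a_at, MLC had 8.20, 8.6 and 8.55, and dHD28 had 8.39, 8.52 and 8.50. HD28 had 8.73, 8.73 and 9.17, of which the highest belongs to replicate 3, the array with hepatocyte RNA. MLC fell below Hepatocyte by 1.41 ± 0.28 (SE, limma adjusted p = 0.00142) and HD28 was lower than Hepatocyte by 0.98 ± 0.28 (limma adjusted p = 0.0165). Without HD28 replicate 3 the HD28 difference was -1.13 (adjusted p = 0.0156), and without replicate 1 or 2 the adjusted p was 0.0589 or 0.0546. With only the arrays compared the limma adjusted p was 0.101. On arrays of low added controls alone the HD28 difference was -1.02 and not past the threshold. There MLC minus Hepatocyte was -1.43, from 1 MLC array. HD28 minus MSC was 0.31 (adjusted p = 0.637). Ordered by mean, the groups ran from Hepatocyte (9.86 ± 0.75) through HD28 (8.88 ± 0.25), MSC (8.57 ± 0.06) and dHD28 (8.47 ± 0.07) to MLC (8.45 ± 0.22; SD, n = 3), and only the step between Hepatocyte and HD28 was called between neighbours.

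**Figure D2:**
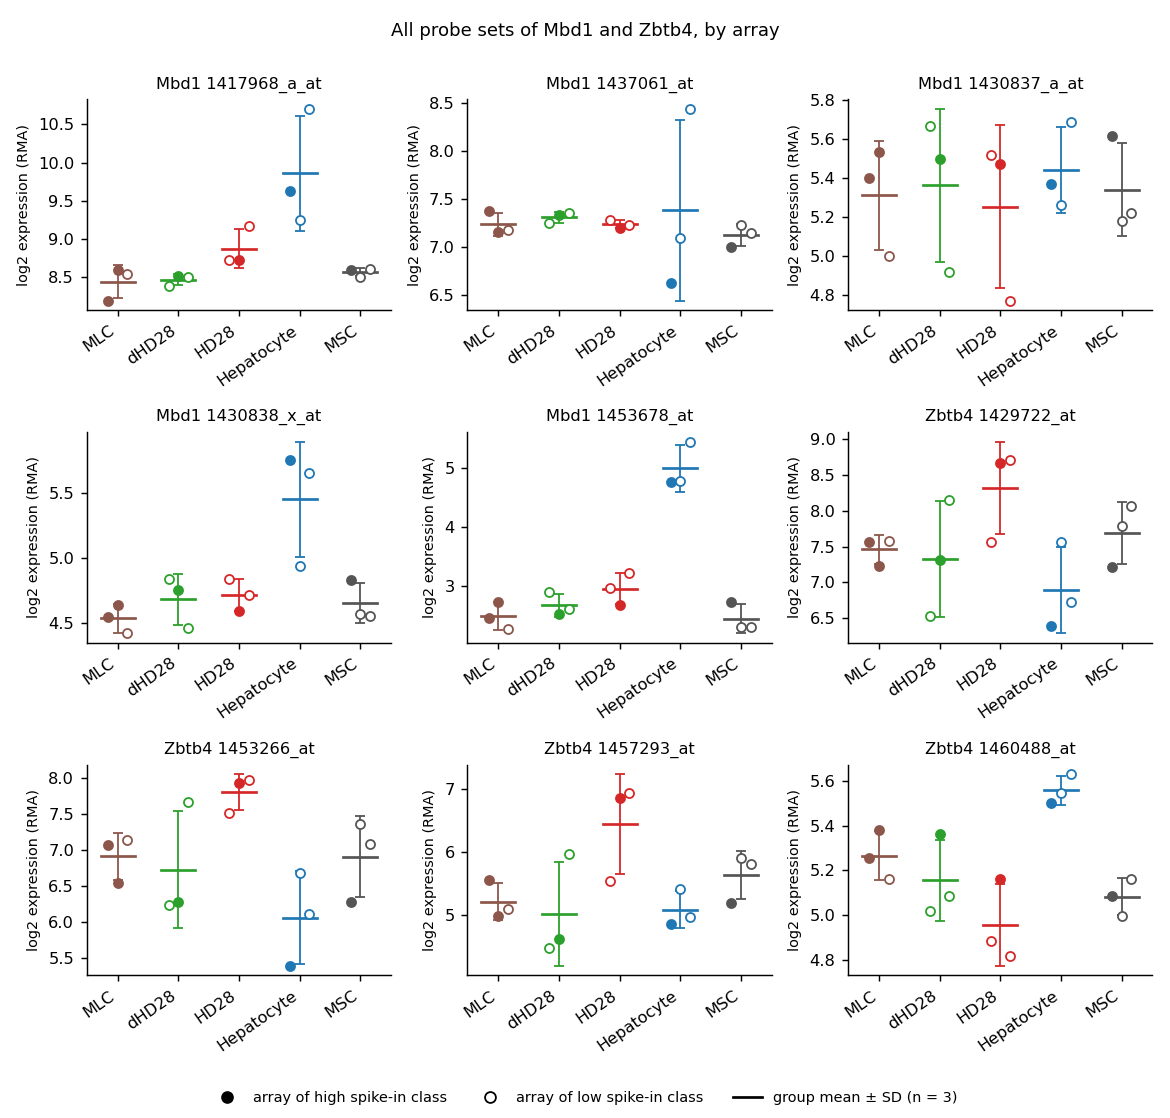
log2 expression of all 5 probe sets of Mbd1 and all 4 of Zbtb4 on the 15 arrays, with points for arrays (filled where the added poly-A controls were high) and group means ± SD (n = 3). For Mbd1, 1417968_a_at and 1453678_at are highest in Hepatocyte, and 1437061_at overlaps between groups; for Zbtb4, 1460488_at runs opposite to the other 3.

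Of the proteins that work with Mbd1, 4 of 6 listed were measured, and 2 fell in Hepatocyte relative to MSC while 0 rose (24.4% of all genes were lower). Setdb1, the methyltransferase, had a log2 change of -0.71 (limma adjusted p = 0.00781). Trim28, a corepressor that also brings in Setdb1, had a log2 change of -1.40 (limma adjusted p = 0.000315). Both were higher in MLC than in Hepatocyte, by 0.72 and 1.3 on the log2 scale. With arrays centred on housekeeping genes, Trim28 alone of the list was called in these comparisons. In HD28 relative to MSC, Trim28 had a log2 change of -0.84 (adjusted p = 0.0448), a call that most single-array omissions ended. In dHD28 relative to HD28, Atf7ip2, a relative of the Mbd1-binding cofactor Atf7ip, rose by 0.88 (limma adjusted p = 0.0293), the 1 call among the 4 genes, beside 6.94% of all genes that were higher. Its HD28 values, 3.35, 3.20 and 3.19, lay under the lower quartile of those arrays. With housekeeping centring Atf7ip2 was not called, and the 1 call of the list was Atf7ip, which was lower (-0.98). The list had 0 calls without any 1 HD28 array, without dHD28 replicate 1, without dim probe sets, with only the arrays compared and with only arrays of low added controls. It had 2 without MSC replicate 1 and with the replicate number as a block, which pairs these samples, and 3 with the class of the added controls as a block. Of all genes, 24.5% were higher in MLC than in Hepatocyte.

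Mbd2 was lower in Hepatocyte than in HD28. The probe set 1417165_at had 10.03, 9.61 and 9.64 in HD28, against 8.53, 9.30 and 8.99 in Hepatocyte, with no overlap. The second probe set, 1425803_a_at, had 8.94, 8.33 and 7.57 in HD28, against 6.70, 7.30 and 6.95 in Hepatocyte, also without overlap. HD28 exceeded Hepatocyte by 0.82 ± 0.22 (limma adjusted p = 0.0115) and by 1.3 ± 0.35 (limma adjusted p = 0.0121) with these probe sets. Both calls held without HD28 replicate 3 (0.88, adjusted p = 0.0189; 1.65, adjusted p = 0.00253), while without HD28 replicate 1 the adjusted p was 0.0554 and 0.0617, and without Hepatocyte replicate 1 that of 1417165_at was 0.0514. With only arrays of low added controls the difference of 1425803_a_at was 1.13 and not past the threshold. The 2 probe sets correlated at r = 0.786 over the 15 arrays. By the mean of 1417165_at the groups ran HD28, MLC, MSC, dHD28 and Hepatocyte, and no step between neighbours was called. Neither Mbd2 probe set was called by the F test over the 5 groups (limma adjusted p = 0.0873 and 0.0518).

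MLC had Mbd2 values of 9.76, 9.18 and 9.57 with 1417165_at and of 8.22, 7.87 and 7.94 with 1425803_a_at. The first exceeded Hepatocyte by 0.56 (limma adjusted p = 0.0643), and by 0.67 in the fit blocked for the class of the added controls, where it was called (adjusted p = 0.00998). It was also called with median centring (adjusted p = 0.0397) and without Hepatocyte replicate 2 (0.025) or MLC replicate 2 (0.0356). The second exceeded Hepatocyte past the threshold (1.03 ± 0.35, limma adjusted p = 0.0362), a call that was lost without Hepatocyte replicate 1 or 3 or any 1 MLC array (adjusted p 0.0617 to 0.117), with quantile normalisation again (0.121) and with housekeeping centring (0.159). Among arrays of low added controls the MLC minus Hepatocyte difference of 1425803_a_at was 0.82, from 1 MLC array. The MSC arrays had 9.26, 9.48 and 9.56 with 1417165_at, overlapping Hepatocyte at its second replicate. Hepatocyte minus MSC was -0.49 (adjusted p = 0.109) and -0.90 (adjusted p = 0.0665). In a fit blocked for the class of the added controls, the first was called at the same size (adjusted p = 0.0431).

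Mbd3, the NuRD subunit, separated Hepatocyte and HD28 from the other 3 groups, though with a wide spread. Its single probe set 1417728_at had 8.73, 9.60 and 8.21 in MLC, and 9.30, 9.82 and 8.20 in dHD28. It had 7.91, 7.5 and 7.26 in HD28, 7.18, 7.44 and 7.19 in Hepatocyte, and 9.63, 8.31 and 8.25 in MSC. Every HD28 and Hepatocyte array lay below every array of MLC, dHD28 and MSC. By mean the groups ran dHD28 (9.11 ± 0.83), MLC (8.85 ± 0.70), MSC (8.73 ± 0.78), HD28 (7.56 ± 0.33) and Hepatocyte (7.27 ± 0.15; SD, n = 3), and no step between neighbours was called.

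MLC exceeded Hepatocyte in Mbd3 by 1.58 ± 0.46, or 2.98-fold (SE, limma adjusted p = 0.0151), and without MLC replicate 2 by 1.20 (adjusted p = 0.0761) and with housekeeping centring by 1.08 (adjusted p = 0.0535). Hepatocyte was 2.75-fold lower than MSC (-1.46 ± 0.46, limma adjusted p = 0.0237). That call was lost without MSC replicate 1 (-1.01, adjusted p = 0.105) and without Hepatocyte replicate 1 or 3 (both adjusted p = 0.0636). It was also lost with quantile normalisation again (-1.19, adjusted p = 0.0693) and with housekeeping centring (-1.05, adjusted p = 0.0657). On return to MSC medium, dHD28 exceeded HD28 by 1.55 ± 0.46, or 2.92-fold, which missed the threshold (limma adjusted p = 0.0505). With the replicate number as a block, which pairs these samples, the adjusted p was 0.0215, and blocked for the class of the added controls it was 0.0186. HD28 minus MSC was -1.17 ± 0.46 (adjusted p = 0.167). The Hepatocyte minus MSC difference was -2.46 between the 1 Hepatocyte and 1 MSC array with high added controls. Among those with low ones, 2 in each group, it was -0.96 and not past the threshold. The direction was the same, and 1 array against 1 cannot tell class from array. Among arrays of low added controls MLC minus Hepatocyte was 0.89, from 1 MLC array. Arrays with high added controls were higher in Mbd3 by 0.63 on average (limma adjusted p = 0.122).

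**Figure D3:**
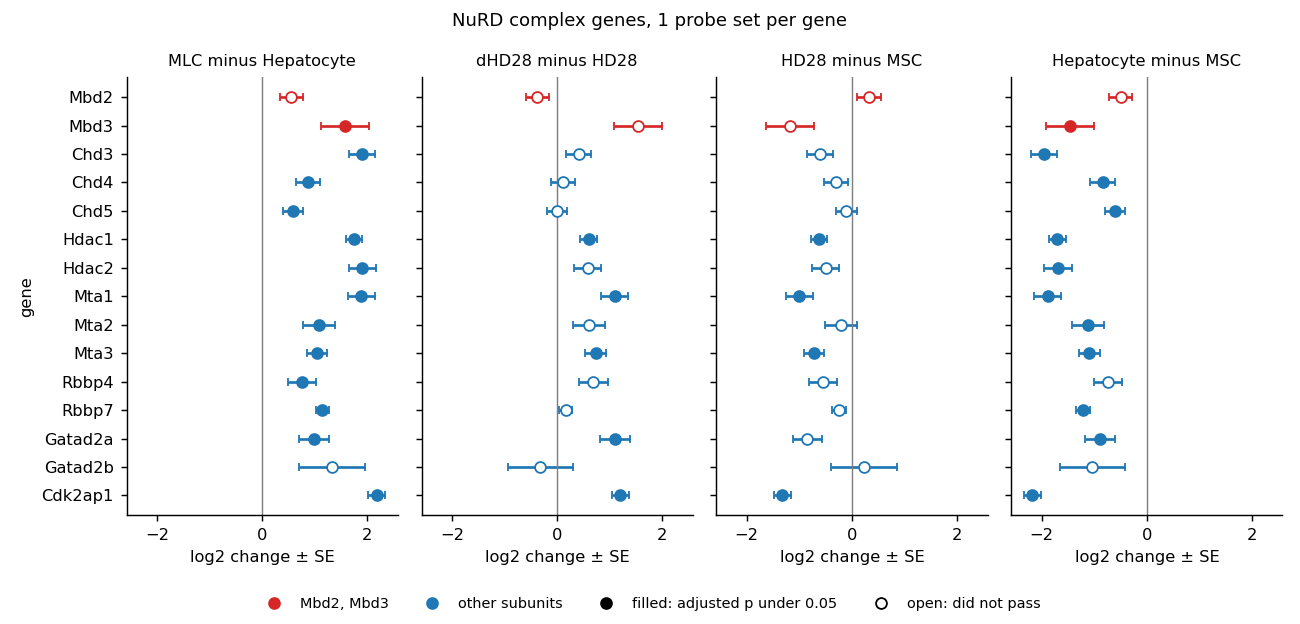
log2 differences ± SE of Mbd2, Mbd3 and 13 other NuRD genes in 4 comparisons, with filled points for an adjusted p under 0.05. Of the 13, 12 lie to the right and are filled in MLC minus Hepatocyte, and 11 lie to the left and are filled in Hepatocyte minus MSC.

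The other NuRD subunits were lower in Hepatocyte as Mbd3 was. All 13 listed genes were measured, and 11 fell in Hepatocyte relative to MSC with 0 rising, beside 24.4% of all genes that were lower. The median difference was -1.11, against 0.04 over all genes. Cdk2ap1, a small NuRD subunit, had a log2 change of -2.18 (limma adjusted p = 4.52e-07), the remodeller Chd3 of -1.95 (adjusted p = 2.96e-05), Mta1, a scaffold subunit, of -1.88, and the deacetylase Hdac1 of -1.71. Rbbp4 (-0.74, adjusted p = 0.0508) and Gatad2b (-1.03, adjusted p = 0.238) were not called. With each array left out in turn 8 to 12 were called, and with housekeeping centring 7. The 9 measured proliferation genes were lower in Hepatocyte and in HD28 as well, and the part of this in the NuRD values was not tested.

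In MLC, 12 of the 13 rose relative to Hepatocyte and 0 fell, beside 24.5% of all genes that were higher. The exception was Gatad2b. Cdk2ap1 rose by 2.19, the deacetylase Hdac2 by 1.91, Chd3 by 1.90 and Mta1 by 1.89 on the log2 scale. Leaving out MLC replicate 2 reduced the count to 7, as did housekeeping centring.

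In HD28 relative to MSC, 4 of the 13 fell and 0 rose, beside 5.46% of all genes that were lower: Cdk2ap1 (-1.32 ± 0.16, limma adjusted p = 0.000371), Mta1 (-1.0, adjusted p = 0.0349), Mta3 (-0.72, adjusted p = 0.0413) and Hdac1 (-0.63, adjusted p = 0.0327). Cdk2ap1 had 10.59, 10.56 and 10.73 in HD28, against 12.19, 11.85 and 11.81 in MSC, with no overlap. HD28 replicate 3 did not stand apart here. Only 1 gene was called when MSC replicate 1 or 3 or any 1 HD28 array was left out, and 2 without MSC replicate 2 or MLC replicate 1. In dHD28 relative to HD28, 5 rose and 0 fell, beside 6.94% of all genes that were higher: Cdk2ap1 by 1.21, Gatad2a by 1.11, Mta1 by 1.10, Mta3 by 0.74 and Hdac1 by 0.60. The dHD28 arrays had 11.69, 12.09 and 11.72 for Cdk2ap1. That count was 2 without any 1 HD28 array and 1 without dHD28 replicate 1 or 2. With housekeeping centring 1 gene, Cdk2ap1, was called in HD28 minus MSC, and 2, Cdk2ap1 and Mta1, in dHD28 minus HD28. These comparisons share the HD28 arrays, and Hepatocyte minus MSC and HD28 minus MSC share the MSC arrays, so the counts are not separate evidence.

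Zbtb33, or Kaiso, was higher in Hepatocyte. The probe set 1434022_at had 9.25, 9.31 and 8.79 in Hepatocyte, against 6.82, 8.30 and 8.25 in MSC. The groups did not overlap, and MSC replicate 1 was the lowest of all 15 arrays. The difference of 1.32 ± 0.41, or 2.50-fold (limma adjusted p = 0.0221), became 0.84 (adjusted p = 0.093) without that array, and the adjusted p was 0.0643 or 0.0678 without Hepatocyte replicate 1 or 2. The dimmer 1421094_at had 5.24, 4.54 and 4.32 in Hepatocyte, against 3.47, 3.50 and 3.86 in MSC, a difference of 1.09 ± 0.36 (limma adjusted p = 0.03). That call was lost without MSC replicate 1 or 2 or Hepatocyte replicate 1 (adjusted p 0.0798 to 0.129). With only arrays of low added controls its difference was 0.75 and not past the threshold. With only the arrays compared the limma adjusted p of 1434022_at was 0.0521. Neither Zbtb33 probe set was called by the F test over the 5 groups (limma adjusted p = 0.104 and 0.128).

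MLC had 8.17, 7.54 and 8.38 with 1434022_at, all below Hepatocyte, by a difference of -1.08 that missed the threshold (limma adjusted p = 0.0533). It passed in the fit blocked for the class (-0.86, adjusted p = 0.0436). The dHD28 arrays had 8.30, 7.20 and 8.42, a difference from Hepatocyte of -1.14 (limma adjusted p = 0.0418). Without dHD28 replicate 2 it was -0.75 (adjusted p = 0.168). The call was also lost without dHD28 replicate 1, HD28 replicate 3, Hepatocyte replicate 1 or 2 or MLC replicate 1 (adjusted p 0.05 to 0.109), with median centring (0.0569) and with the replicate number as a block (0.05). HD28 had 8.68, 8.15 and 8.41, and HD28 minus MSC was 0.62 (adjusted p = 0.463). By mean the groups ran Hepatocyte, HD28, MLC, dHD28 and MSC, and no step between neighbours was called. With 1434022_at, arrays with high added controls were lower by 0.67 on average (a difference of -0.67, limma adjusted p = 0.0504). Hepatocyte minus MSC was 2.43 between the 1 Hepatocyte and 1 MSC array of that class. Among the others, 2 in each group, it was 0.77.

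Zbtb4, a Kaiso relative that binds single methylated CpG, had its highest group mean in HD28 with 3 of its 4 probe sets. Of these, 1429722_at and 1453266_at have the same source sequence in the annotation, so they are not separate readings. With 1453266_at, HD28 had 7.51, 7.92 and 7.96, against 5.39, 6.67 and 6.11 in Hepatocyte. The groups did not overlap, and HD28 exceeded Hepatocyte by 1.74 ± 0.41 (SE, limma adjusted p = 0.0052). This difference held without HD28 replicate 3 (1.66, adjusted p = 0.0176). With only arrays of low added controls it was 1.35 and not past the threshold. With 1429722_at, HD28 had 7.57, 8.67 and 8.72, against 6.39, 7.56 and 6.73 in Hepatocyte. With 1457293_at, HD28 had 5.53, 6.86 and 6.94, against 4.86, 5.42 and 4.97 in Hepatocyte. HD28 replicate 1 was the lowest of its group each time but lay above every Hepatocyte array.

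Those differences were 1.43 ± 0.43 (limma adjusted p = 0.0202) and 1.36 ± 0.42 (limma adjusted p = 0.0237), and both calls were lost without HD28 replicate 3 (1.23, adjusted p = 0.0678; 1.12, adjusted p = 0.0835). They were lost as well without HD28 replicate 2 (adjusted p = 0.0718 and 0.0863), Hepatocyte replicate 1 (0.0828 and 0.0741) or Hepatocyte replicate 3 (0.0621 and 0.0661). The call of 1429722_at was also lost with quantile normalisation again (adjusted p = 0.0592). With only arrays of low added controls 1429722_at and 1457293_at had differences of 0.999 and 1.04, neither past the threshold. In the class block without HD28 replicate 3 neither was called (limma adjusted p = 0.0582 and 0.0778). HD28 minus MSC with these 3 probe sets was 0.63 to 0.90, and none was called (adjusted p 0.257 to 0.483). The 3 probe sets correlated with one another at r = 0.85 to 0.922 over the 15 arrays. By the mean of 1429722_at the groups ran HD28, MSC, MLC, dHD28 and Hepatocyte, with no step between neighbours called.

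After the return to MSC medium the Zbtb4 differences ran the other way without passing the test. The dHD28 arrays had 4.47, 4.61 and 5.96 with 1457293_at, of which replicate 3 lay inside the HD28 range. The difference from HD28 was -1.43 ± 0.42 (limma adjusted p = 0.0507). In the fit blocked for the class the adjusted p was 0.0447, and this probe set was also called lower with the replicate number as a block. The MSC arrays had 5.19, 5.90 and 5.81, and MLC had 5.55, 4.99 and 5.09.

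The last Zbtb4 probe set, 1460488_at, behaved differently. It had 5.50, 5.54 and 5.63 in Hepatocyte, against 5.09, 5.00 and 5.16 in MSC, a difference of 0.48 ± 0.14 (limma adjusted p = 0.015) that was not called without MSC replicate 2 (adjusted p = 0.0588) or Hepatocyte replicate 3 (0.0515). HD28 had 4.89, 5.16 and 4.82, which fell below Hepatocyte by 0.60 ± 0.14 (limma adjusted p = 0.00389). Its correlations with the other 3 were -0.49 to -0.669. A direction for Zbtb4 therefore depends on the probe set read. In Hepatocyte minus MSC the other 3 had differences of -0.55 to -0.85, none of them called (adjusted p 0.139 to 0.36).

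Zbtb38, another zinc-finger member, known to bind CtBP corepressors, was not called in any comparison with any of its 3 probe sets, nor by the F test over the 5 groups (limma adjusted p 0.434 to 0.702), in the fit without a block. With 1437650_at the arrays spread between 5.94 and 7.23, with MSC replicate 1 the lowest and MLC replicate 1 the highest. Values ran from 5.59 to 7.31 with 1434687_at and from 4.15 to 5.20 with 1438269_at. The 3 probe sets correlated with one another at -0.223 to 0.415. With 1434687_at, arrays with high added controls were lower by a difference of -0.63 (adjusted p = 0.0495). In the fit blocked for that class, 1434687_at was called higher in MLC than in Hepatocyte (0.93 ± 0.29, limma adjusted p = 0.0228). Its difference was 0.80 within each class, from 1 Hepatocyte array in the high class and 1 MLC array in the low class. With housekeeping centring 1438269_at was called higher in Hepatocyte than in MSC and lower in MLC, dHD28 and HD28 than in Hepatocyte.

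Of the corepressors and partners of the Kaiso family, 10 of 11 listed genes were measured. In Hepatocyte relative to MSC, 5 fell and 0 rose, again beside 24.4% of all genes that were lower. Ctbp2, a corepressor that Zbtb38 binds, had 3.83, 6.02 and 5.30 in Hepatocyte, against 8.61, 8.87 and 8.83 in MSC, a log2 change of -3.72 (limma adjusted p = 5.71e-06). Its relative Ctbp1 had -2.08 (adjusted p = 1.38e-05). Gps2 (-1.15) and Hdac3 (-1.10), subunits of the corepressor complex that Kaiso recruits, fell too, as did Tbl1x (-0.77). Kaiso RNA was higher in Hepatocyte while 5 of its family's partners were lower. With housekeeping centring 4 of the list were lower, and Tbl1xr1 and Usp9x were higher.

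In MLC, 5 of these 10 partners were called higher than in Hepatocyte and 0 were called lower, beside 24.5% and 20.5% of all genes: Ctbp2 by 3.73, Ctbp1 by 2.15, Hdac3 by 1.07, Gps2 by 0.96 and Tbl1x by 0.89 on the log2 scale. With housekeeping centring 4 were called higher, without Gps2, and Tbl1xr1 (-0.62) and Usp9x (-1.19) were called lower. In HD28 relative to MSC, Ctnnd1, which encodes p120 catenin, rose by 1.11 (limma adjusted p = 0.0433), and Tbl1xr1 rose by 0.99 (adjusted p = 0.0278). Of all genes 3.97% were higher, and with each array left out the count ran from 0 to 2. Tbl1xr1 fell in dHD28 relative to HD28 by 0.91 (adjusted p = 0.034), beside 5.42% of all genes that were lower.

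Among 9 other genes listed for an MBD domain or kinship to Mbd3, 7 were measured. Mbd4, a glycosylase that repairs mismatches at CpG, fell in Hepatocyte relative to MSC (-1.41 ± 0.39, limma adjusted p = 0.0119) and was higher in MLC than in Hepatocyte by 1.42. Mbd3l2 had small differences the other way, 0.39 and -0.37, between values that lay under the lower quartile of every array. With quantile normalisation again or with median centring Mbd3l2 was not called in either comparison. With housekeeping centring it was called in both. Of all genes 24.4% were lower and 18.6% higher in Hepatocyte than in MSC. In MLC 24.5% were higher and 20.5% lower than in Hepatocyte. Without Hepatocyte replicate 1, 0 of the list were called in these comparisons.

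In the main fit, of the comparisons between pairs of groups only those with Hepatocyte held calls of members. Some alternatives without a block called members elsewhere. With median centring Mbd3 was called higher in dHD28 than in HD28. With housekeeping centring Zbtb4 1457293_at was called lower in dHD28 and in MLC than in HD28. The counts that follow are of the main fit unless a block is named. In HD28 minus Hepatocyte 9 of 17 probe sets were called, 5 higher and 4 lower (52.9%, beside 33.6% of all probe sets, 16.1% higher and 17.5% lower). In MLC minus Hepatocyte 5 were called, 2 higher and 3 lower (29.4%, beside 35.9% of all probe sets, 18.7% higher and 17.2% lower). In dHD28 minus Hepatocyte 7 were called, 2 higher and 5 lower, beside 37% of all probe sets (19.2% higher, 17.8% lower). In HD28 minus MSC limma called 0 of 17, beside 6.89% of all probe sets, with 3 at an unadjusted p under 0.05. In dHD28 minus HD28 it called 0, beside 9.28%, with 4 at an unadjusted p under 0.05. The replicate block raised the dHD28 minus HD28 count to 2. In MLC minus HD28 it called 0, beside 8.4%, again with 4 at an unadjusted p under 0.05. By the F test over the 5 groups 6 of 17 differed (35.3%, beside 34.7% of all probe sets). These were probe sets of Mbd1, Mbd3 and Zbtb4. No difference among MLC, dHD28 and MSC was detected: limma called 0 members and 0 of all probe sets in each of the 3 comparisons among them, and 0 members had an unadjusted p under 0.05. The median absolute difference of the members was 0.182 in dHD28 minus MSC, 0.116 in MLC minus MSC and 0.146 in MLC minus dHD28, beside 0.127, 0.103 and 0.104 over all probe sets.

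**Figure D4:**
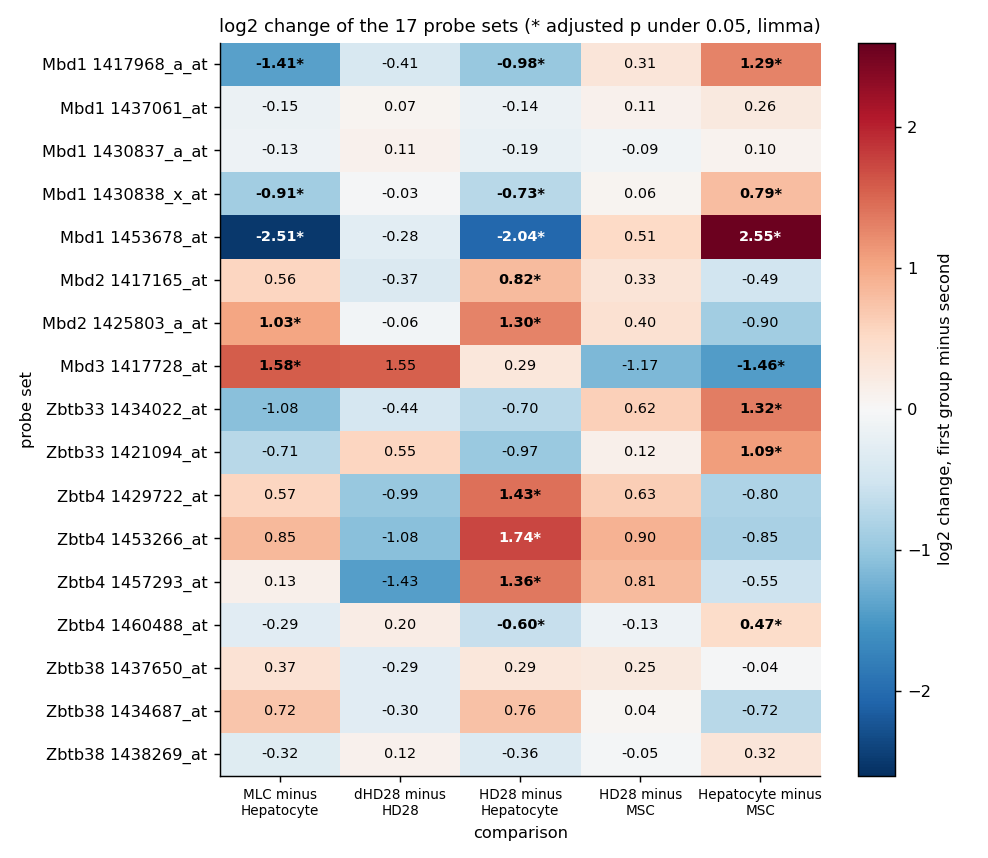
log2 differences of the 17 member probe sets in 5 comparisons, with an asterisk at an adjusted p under 0.05. The columns with Hepatocyte hold all asterisks: 5 in MLC minus Hepatocyte, 9 in HD28 minus Hepatocyte and 7 in Hepatocyte minus MSC.

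Hepatocytes placed in MSC medium with hTGF-β1 and HD28 returned to MSC medium are the 2 moves into that medium, and whether the members changed differently in them was tested as the difference between MLC minus Hepatocyte and dHD28 minus HD28. It was called for 3 of 17 probe sets, 2 of Mbd1 and 1 of Zbtb4 (1 higher and 2 lower, 17.6%, beside 19.4% of all probe sets, 10.5% higher and 8.97% lower). Of those called, Mbd1 1453678_at had HD28 and dHD28 values under the lower quartile of their arrays. Its source sequence in the annotation is also that of the other called Mbd1 probe set, 1430838_x_at. Mbd3 had a difference of 1.58 in MLC minus Hepatocyte, which was called, and of 1.55 in dHD28 minus HD28, which was not. The difference between them was 0.03 ± 0.64 (limma adjusted p = 0.983), an SE too wide to show that the changes were alike. The Hepatocyte and HD28 starting arrays differ in other cell types by the marker values above.

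The genes whose values were most like each member's over the 15 arrays were found among genes whose group means spanned at least 1 log2 unit. For Mbd1 they were Lpin1 (r = 0.984), Cyp2b10 (0.969) and Acer2 (0.966), and for Mbd2 Polk (0.966), Arhgap24 (0.956) and Plcb4 (0.953). For Mbd3 they were Tarbp2 (0.986), Bop1 (0.986) and Urb1 (0.985). For Zbtb33 they were Mbtd1 (0.977), B230307C23Rik (0.974) and Mob1b (0.968), and for Zbtb4 Man2a2 (0.904), Cdyl2 (0.895) and Crlf2 (0.891). Zbtb38 had the weakest likeness, with Itgb1 (0.754), Gadd45g (0.732) and Fos (0.721). By rank (Spearman) the correlations with Mbd1 were 0.914 for Lpin1, 0.639 for Cyp2b10 and 0.725 for Acer2. For the genes of the other members they were 0.711 to 0.982. These correlations describe arrays that share groups, replicate numbers and spike-in classes.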

How the data were processed

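RNA of 15 samples, 3 in each of 5 groups, was labelled as cRNA from 5 µg of total RNA and hybridised to Affymetrix arrays, per the labels' protocols. The deposited values are on a log2 scale; the submitters' processing notes name RMA (robust multi-array average, which corrects background, normalises quantiles and summarises probes). No log base is given; base 2 was inferred from values between 1.32 and 14.15. Arrays carry no read depth, so their number limits the precision, and the table holds no detection calls. Of 45101 probe sets, 64 controls were left out. Probe sets ending in _a_at, _s_at or _x_at can match several transcripts of a gene or related sequences.

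Using limma 3.58.1 (R 4.3.3), a model of group means over all 15 arrays was fitted by lmFit and eBayes (10 residual degrees of freedom), with two-sided p-values adjusted by Benjamini-Hochberg over 45037 probe sets in each comparison. Errors of differences are SE and those of means SD. Genes of lists were read from the same fit through each gene's brightest probe set by overall mean (18193 genes). All member probe sets are named, and of each list the called genes with the 4 largest changes in a comparison or those singled out for not being called; the single NuRD exceptions were chosen after their values were seen. Like genes are the 3 with the highest Pearson r. The members and lists were chosen with earlier results of these data known. Same-numbered samples deviated together between dHD28 and HD28 (correlations 0.381, 0.294 and 0.246), between MLC and HD28 (0.187, 0.248 and 0.252) and between MLC and dHD28 (0.2, 0.72 and 0.583), so the numbers were taken to pair them; elsewhere at least 1 pair was under 0.1. Same-numbered HD28 and dHD28 arrays also share the spike-in class, so number and class cannot be told apart there. The main fit left this pairing out. The replicate block spanned all 15 arrays, so it gave MSC and Hepatocyte the same replicate effects as the paired groups. Between dHD28 and MSC the correlations were -0.162, -0.5 and 0.639, which limits that block. No 2 arrays were identical (highest r 0.99605). The model was tested on simulated data.

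Alternatives were 1 probe set per gene, a fold of at least 2, no dim probe sets, no _s_at or _x_at probe sets, quantile normalisation again, centring on housekeeping genes or on the array median, robust fitting with a trend, only the arrays compared, the replicate number or the spike-in class as a block, only arrays of the low class, the class block without HD28 replicate 3, and each array left out.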

Additional observations from a re-analysis of the deposited data

Results flagged for a closer look

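The difference between 2 changes, MLC minus Hepatocyte less dHD28 minus HD28, was past the threshold for 3 member probe sets. For Mbd1 1453678_at it was -2.23 ± 0.31 (SE, limma adjusted p = 0.000272), with values of 2.46, 2.73 and 2.26 in MLC against 4.75, 4.78 and 5.44 in Hepatocyte, and of 2.89, 2.52 and 2.6 in dHD28 against 2.96, 2.68 and 3.21 in HD28. These HD28 and dHD28 values all lay under the lower quartile of their arrays, so a fall between them could hardly show. With 1417968_a_at, the brightest Mbd1 probe set, the same difference was -1.01 and was not called (limma adjusted p = 0.102). The call held under every alternative that kept this probe set. Those with 1 probe set per gene and with no dim probe sets left it out. For Mbd1 1430838_x_at it was -0.88 ± 0.28 (limma adjusted p = 0.0414); the call was lost with quantile normalisation again (adjusted p = 0.0568), with median centring (0.0571), with only the arrays compared (0.0621), with only arrays with low added controls (0.367) and with 12 of the 15 arrays left out singly. For Zbtb4 1453266_at it was 1.93 ± 0.58 (limma adjusted p = 0.0327), with MLC arrays at 7.06, 6.54 and 7.13 against 5.39, 6.67 and 6.11 in Hepatocyte, and dHD28 arrays at 6.23, 6.27 and 7.66 against 7.51, 7.92 and 7.96 in HD28. That call was lost with quantile normalisation again (adjusted p = 0.0508), with only arrays with low added controls (0.29) and without MLC replicate 1 or 3, dHD28 replicate 1 or 2, HD28 replicate 2 or 3, or Hepatocyte replicate 1 or 3.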

How the results depend on the processing

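Over all alternatives for the single member values, 1258 kept direction and side of the threshold, 100 lost a call, 27 gained one and 10 changed sign. The class is that of the poly-A controls, and the counts of called member probe sets, with the value as reported in brackets, moved as follows. In dHD28 minus HD28 (0) they were 1 with 1 probe set per gene, 2 without dim probe sets, 1 with median centring, 1 with housekeeping centring, 2 with the replicate block, 2 with the class block and 1 with the class block without HD28 replicate 3. In Hepatocyte minus MSC (7) they were 3 with 1 probe set per gene and 3 with low-class arrays. In HD28 minus Hepatocyte (9) they were 3 with 1 probe set per gene, 5 at a fold of at least 2 and 3 with low-class arrays. In MLC minus Hepatocyte (5) they were 3 with 1 probe set per gene, 8 with housekeeping centring, 10 with the class block, 1 with low-class arrays and 9 with the class block without HD28 replicate 3. In dHD28 minus Hepatocyte (7) they were 3 with 1 probe set per gene, and in MLC minus HD28 (0) 1 with housekeeping centring. For MLC minus Hepatocyte less dHD28 minus HD28 (3) they were 1 with 1 probe set per gene, 1 with quantile normalisation, 6 with housekeeping centring, 6 with the class block, 1 with low-class arrays and 5 with the class block without HD28 replicate 3; for the F test (6) they were 2 with 1 probe set per gene, 10 with housekeeping centring and 1 with low-class arrays. One probe set per gene leaves 6 to count, and low-class arrays are 9 of 15; other causes were not tested. Leaving out each array gave 0 to 3 in dHD28 minus HD28 (3 without dHD28 replicate 3, 2 without MSC replicate 1), 4 to 8 in Hepatocyte minus MSC (4 without MSC replicate 1 or Hepatocyte replicate 1), 6 to 10 in HD28 minus Hepatocyte, 4 to 7 in MLC minus Hepatocyte, 5 to 7 in dHD28 minus Hepatocyte, 0 to 1 in MLC minus HD28, 1 to 6 for that difference of changes and 3 to 7 for the F test (3 without Hepatocyte replicate 3). The replicate block moved no other count of member calls by over 1.5 times. Housekeeping centring shifted the median of all probe sets by -0.50 to 0.41; the share higher among all called probe sets was then 77.4% in place of 45.4% in Hepatocyte minus MSC, 18.7% in place of 52.1% in MLC minus Hepatocyte, 25.9% in place of 48% in HD28 minus Hepatocyte, 33.4% in place of 56.6% in dHD28 minus HD28 and 64.4% in place of 43.4% in HD28 minus MSC. Members called higher and lower were then 7 and 0 in place of 6 and 1 in Hepatocyte minus MSC, 0 and 8 in place of 2 and 3 in MLC minus Hepatocyte, 5 and 6 in place of 5 and 4 in HD28 minus Hepatocyte, and 2 and 7 in place of 2 and 5 in dHD28 minus Hepatocyte. The sign changes were all of Zbtb38 1437650_at, which was never called: HD28 minus MSC was -0.14 with low-class arrays and -0.043 to 0.49 with single arrays left out (-0.043 without MSC replicate 1); Hepatocyte minus MSC was 0.22 with quantile normalisation, 0.37 with housekeeping centring and -0.34 to 0.13 with single arrays left out (0.13 and 0.08 without MSC replicate 2 and 3, 0.03 and 0.06 without Hepatocyte replicate 2 and 3); HD28 minus Hepatocyte was -0.001 with quantile normalisation, and MLC minus Hepatocyte was -0.13 with housekeeping centring. Dim probe sets such as Mbd1 1453678_at have no detection calls, which limits how a fold from their low groups can be read.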
